A study of Homo sapiens with 12 samples.

Results

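The integrated stress response was followed through 32 genes chosen by name: the 4 kinases that phosphorylate the translation factor eIF2alpha, the subunits that direct its dephosphorylation together with the GCN2 inhibitor IMPACT, the transcription factor ATF4 with related factors, and genes known as ATF4 targets. The list is one of names, with no threshold on a measured value, but it was chosen with earlier results of these data known. All 32 genes had a row among the 19504 rows with a gene symbol, and all 32 passed the filter on low counts that left 12392 genes for testing. The samples were 2 human acute myeloid leukaemia cell lines, MV4-11, whose FLT3 receptor tyrosine kinase gene has an internal tandem duplication (FLT3-ITD), and OCI-AML3, which has mutated NPM1 and no FLT3-ITD. The groups were MV4-11 under 5 nM AC220 (quizartinib, an inhibitor of FLT3), MV4-11 under DMSO (the vehicle), OCI-AML3 under 5 nM AC220 and OCI-AML3 under DMSO, each for 24 h and with 3 libraries of 3' mRNA sequencing. Every library came from a permanent line, and the labels do not say whether replicates were separate cultures, so that the spread behind the p-values is that between libraries and may be technical.

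In the integrated stress response, HRI, PKR, PERK and GCN2 sense different stresses and converge on the phosphorylation of eIF2alpha, which lowers translation in general while upstream open reading frames let ATF4 protein be made. ATF4 pairs with other basic leucine zipper proteins, C/EBP family members among them, and binds C/EBP-ATF response elements in genes of amino acid uptake and synthesis, tRNA charging, redox defence and growth control. The response lasts until phosphatase complexes return eIF2alpha to its unphosphorylated form. RNA counts measure neither that phosphorylation nor the amount of any protein, and in bulk RNA fewer cells that express a gene cannot be told apart from less RNA of it per cell.

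Library totals ran from 11419454 to 13328968 counts in MV4-11 AC220, 15041493 to 16918761 in MV4-11 DMSO, 10877198 to 14458640 in OCI-AML3 AC220 and 13013381 to 13455082 in OCI-AML3 DMSO, so that 3 counts were worth 0.177 to 0.276 CPM in a library. CPM puts counts on a common scale of library size, here corrected for composition by TMM (a trimmed mean of ratios), and differences were tested by quasi-likelihood in edgeR, with p-values adjusted over all tested genes after Benjamini and Hochberg. A gene is called higher or lower where its adjusted p is under 0.05. How many of all genes had groups without overlap was not counted, so a lack of overlap only describes the gene named. FLT3 itself stood at 364 ± 133 CPM in MV4-11 AC220, 218 ± 22.8 CPM in MV4-11 DMSO, 23.1 ± 4.23 CPM in OCI-AML3 AC220 and 11.8 ± 1.63 CPM in OCI-AML3 DMSO (SD, n = 3 each). The 8 myeloid markers summed to 947 to 1240 CPM in MV4-11 AC220 and 654 to 688 CPM in MV4-11 DMSO, and to 758 to 824 CPM in OCI-AML3 AC220 and 724 to 740 CPM in OCI-AML3 DMSO, where KIT was at 0. Markers of T and B cells summed to at most 2.37 CPM in any library and markers of erythroid cells and megakaryocytes to at most 0.465 CPM. The 5 measured epithelial and stromal markers summed to 12.6 to 19.1 CPM in MV4-11 AC220 and 10.3 to 11.1 CPM in MV4-11 DMSO, with EPCAM, KRT19 and COL3A1 at 0. Nearly all of these sums was KRT8, which averaged 15.9 CPM in MV4-11 AC220 and 10.6 CPM in MV4-11 DMSO. In OCI-AML3 the 5 markers summed to 0 to 0.271 CPM under AC220 and 0.155 to 0.304 CPM under DMSO. The myeloid sum and the library totals of MV4-11 thus moved with the treatment, and their part in the results was not tested. A set of 5 HOXB genes had been listed as high in NPM1-mutant and low in MV4-11 cells, and their sum went the other way: it was 24.6 to 31.7 CPM in MV4-11 AC220 against 2.01 to 3.23 CPM in OCI-AML3 AC220, and 18.3 to 22.6 CPM in MV4-11 DMSO against 1.24 to 2.20 CPM in OCI-AML3 DMSO. HOXB3 and HOXB4 made up most of that sum in MV4-11, whereas HOXB6 went the listed way, at 0.0605 CPM in MV4-11 AC220 against 1.65 CPM in OCI-AML3 AC220 and 0.206 CPM in MV4-11 DMSO against 0.950 CPM in OCI-AML3 DMSO, and HOXB2 and HOXB5 averaged at most 0.230 CPM in any group. The lines are called here as they are labelled, and comparisons within a line do not rest on that name.

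The first comparison asked how these transcripts differed between AC220 and DMSO in MV4-11, the line with FLT3-ITD. AC220 was followed by lower RNA of 28 of the 32 genes in MV4-11, by higher RNA of the GCN2 kinase gene EIF2AK4 alone, and by no call for EIF2AK2, EIF2AK3 and ATF6. Among all 12392 genes tested, 26.9% were called lower and 31.5% higher. Of the 28 genes, 21 were lower by at least 2-fold, which held for 8.74% of all genes tested. The median log2 fold change of the 32 genes was −1.76, and that of all genes was 0.07. Together the 32 genes took 0.124% to 0.133% of a library's counts in MV4-11 AC220, against 0.439% to 0.450% in MV4-11 DMSO. The size of the change differed by role: the genes of sensing and dephosphorylation lay between −0.78 and 0.53 on the log2 scale, while the secreted factors, metabolic enzymes and growth brakes reached much larger decreases. Fitting the 6 MV4-11 libraries alone gave 28 lower and 1 higher, with EIF2AK2 added to those lower and STC2 no longer tested.

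**Figure D1:**
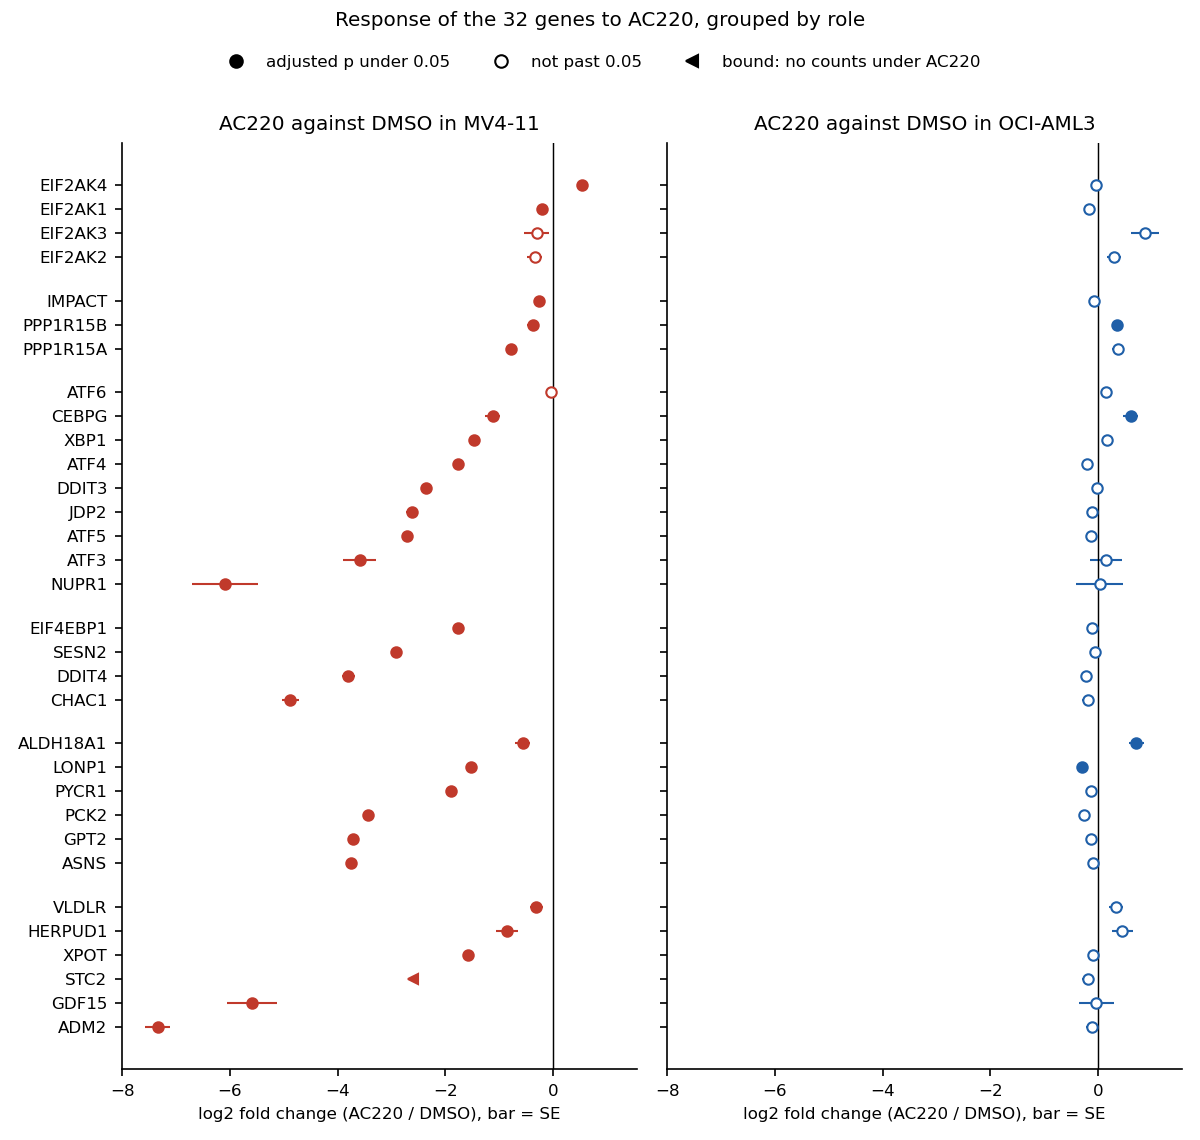
Each row is a gene, grouped by role, and the x axis is the log2 fold change of AC220 against DMSO in MV4-11 (left, red) and OCI-AML3 (right, blue), with bars of 1 SE; filled points had an adjusted p under 0.05 and the triangle for STC2 is a bound. In MV4-11 28 of 32 genes lie left of 0 with a call, down to −7.34 for ADM2, whereas in OCI-AML3 28 of 32 genes have no call.

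The 4 eIF2alpha kinase genes did not move together in MV4-11. EIF2AK4 encodes GCN2, the kinase that senses uncharged tRNA. It had 60.7, 61.3 and 65.6 CPM in the AC220 libraries, against 43.0, 45.3 and 41.5 CPM in the DMSO libraries. All AC220 libraries lay above all DMSO libraries, a log2 fold change of 0.53 (SE 0.0819, adjusted p = 2.20e-06). EIF2AK1 encodes HRI, which responds to haem shortage and relays mitochondrial stress. It had 204, 207 and 215 CPM in the AC220 libraries, against 242, 239 and 239 CPM in the DMSO libraries. The groups did not overlap, but the decrease was small, with a log2 fold change of −0.20 (SE 0.0670, adjusted p = 0.0123), and on the deposited normalised values it was −0.08 with an adjusted p of 0.356 by limma, the highest over its alternatives, whose lowest was 0.00113.

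EIF2AK2, which encodes PKR, the sensor of double-stranded RNA, had 40.8, 27.9 and 33.7 CPM in MV4-11 AC220, against 38.1, 44.9 and 47.4 CPM in MV4-11 DMSO. The highest AC220 library lay above the lowest DMSO library, and the log2 fold change of −0.34 (SE 0.144) missed the threshold at an adjusted p of 0.0574. It passed in 11 of 20 alternatives, among them DESeq2 (adjusted p = 0.0153), limma-voom (0.0415) and the replicate block (0.0308). Without MV4-11 AC220 replicate 1, the high library, the log2 fold change was −0.50 with an adjusted p of 0.00940, and over all alternatives the adjusted p ran from 0.00940 to 0.202. EIF2AK3, which encodes PERK, the kinase of the endoplasmic reticulum, had 5.77, 3.63 and 4.72 CPM in MV4-11 AC220, against 5.10, 6.09 and 6.36 CPM in MV4-11 DMSO. It was the kinase gene with the fewest counts, its groups overlapped, with a log2 fold change of −0.30 (SE 0.229, adjusted p = 0.267).

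The genes that act against eIF2alpha phosphorylation were all lower in MV4-11 after AC220. PPP1R15A encodes GADD34, the inducible subunit that brings protein phosphatase 1 to eIF2alpha, and is itself a target of the pathway. It had 29.9, 28.8 and 30.2 CPM in the AC220 libraries, against 51.7, 51.5 and 49.8 CPM in the DMSO libraries, with a log2 fold change of −0.78 (SE 0.0961, adjusted p = 4.77e-08). PPP1R15B encodes CReP, the constitutive counterpart. It had 16.6, 14.0 and 14.3 CPM in the AC220 libraries, against 17.4, 20.3 and 20.3 CPM in the DMSO libraries, with a log2 fold change of −0.36 (SE 0.111, adjusted p = 0.00612). IMPACT, whose protein competes with GCN2 for its activator GCN1, had 42.1, 42.1 and 46.6 CPM in the AC220 libraries, against 51.8, 52.4 and 52.7 CPM in the DMSO libraries. Its log2 fold change was −0.26 (SE 0.0792, adjusted p = 0.00542). In none of these genes did the libraries of the groups overlap.

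**Figure D2:**
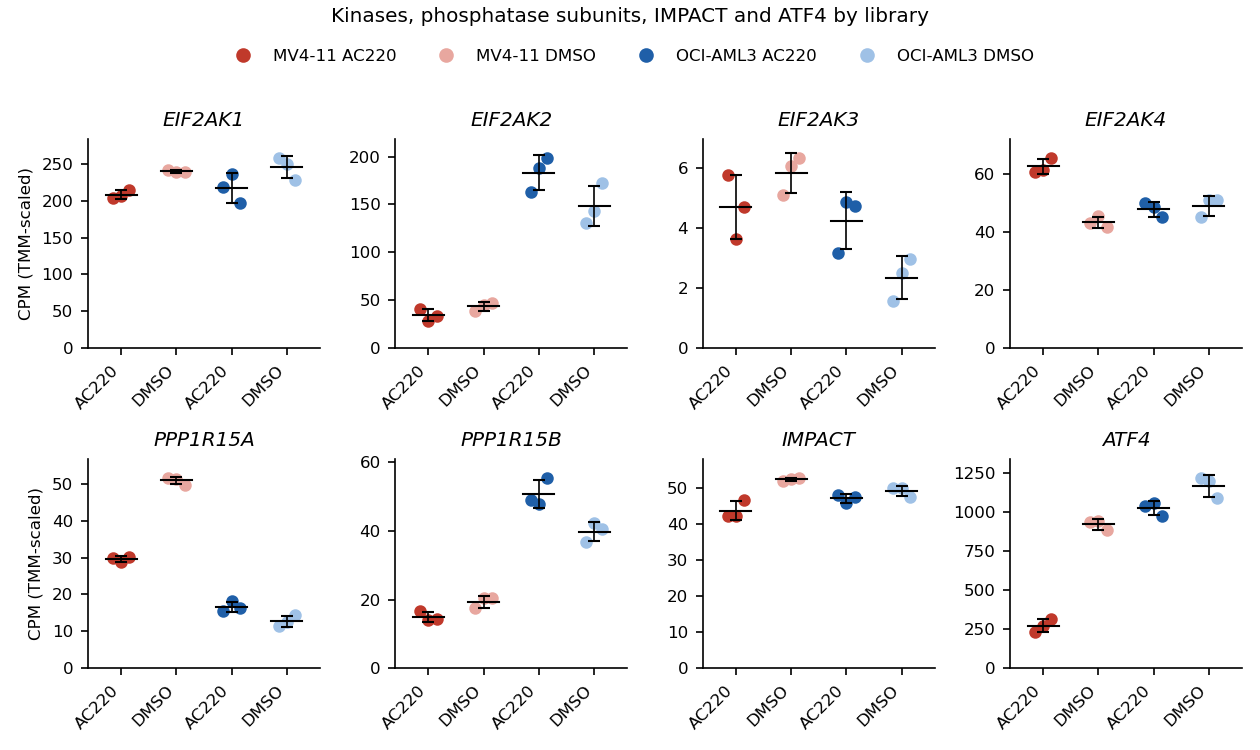
Each panel shows TMM-scaled CPM of a gene in every library, with the mean and SD of 3 libraries per group, for the kinases, phosphatase subunits, IMPACT and ATF4; red and pink are MV4-11 under AC220 and DMSO, dark and light blue are OCI-AML3 under AC220 and DMSO. EIF2AK4 is higher in every MV4-11 AC220 library, at 60.7 CPM or more, than in any other library, and ATF4 is at 313 CPM or less there and at 883 CPM or more in every other group.

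ATF4, the transcription factor at the centre of the response, had 232, 270 and 313 CPM in MV4-11 AC220, against 937, 946 and 883 CPM in MV4-11 DMSO. Its RNA was 3.40-fold lower, a log2 fold change of −1.76 (SE 0.0789, adjusted p = 1.85e-16), and the groups lay far apart. ATF3, a stress-induced factor of the same family, had 0.607, 1.12 and 3.54 CPM in the AC220 libraries, against 19.9, 18.7 and 23.4 CPM in the DMSO libraries. The third AC220 library held several times the ATF3 of the others, yet all of them lay far below the DMSO libraries, with a log2 fold change of −3.59 (SE 0.310, adjusted p = 1.32e-08), and of −4.66 without MV4-11 AC220 replicate 3. ATF5, whose translation is controlled like that of ATF4, had 74.3, 100 and 94.7 CPM in the AC220 libraries, against 581, 635 and 551 CPM in the DMSO libraries, a log2 fold change of −2.72 (SE 0.0878, adjusted p = 2.26e-19).

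DDIT3, which encodes CHOP, a C/EBP relative that acts downstream of ATF4, had 25.4, 26.0 and 29.9 CPM in MV4-11 AC220, against 137, 139 and 142 CPM in MV4-11 DMSO. It was 5.15-fold lower with an adjusted p of 7.47e-21. CEBPG, a C/EBP partner of ATF4, had 41.3, 30.3 and 30.5 CPM in the AC220 libraries, against 69.7, 72.2 and 80.6 CPM in the DMSO libraries, a log2 fold change of −1.12 (SE 0.143, adjusted p = 6.23e-06). JDP2, a repressor of the AP-1 family, fell by 2.62 on the log2 scale, with 6.91, 7.16 and 8.99 CPM in the AC220 libraries and 48.6, 46.8 and 46.0 CPM in the DMSO libraries. NUPR1, a small stress-induced chromatin protein, was almost lost from MV4-11: the AC220 libraries held 2 counts in all and the DMSO libraries 218. Scaled to library size it was 78.7-fold lower, with a 95% interval of 21.5 to 654 that covers counting error only.

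The factors of the other branches of the unfolded protein response went separate ways in MV4-11. XBP1, the factor that the endoplasmic reticulum sensor IRE1 activates by splicing, had 173, 162 and 160 CPM in the AC220 libraries, against 439, 462 and 475 CPM in the DMSO libraries, a log2 fold change of −1.47 (SE 0.0605, adjusted p = 1.36e-18). Counts per gene say nothing of its splicing. ATF6, the membrane-bound factor that is released by proteolysis, had 35.2, 31.4 and 29 CPM in the AC220 libraries, against 31.8, 35.9 and 30.1 CPM in the DMSO libraries. The libraries overlapped, with a log2 fold change of −0.03 (SE 0.0950, adjusted p = 0.812).

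The brakes on growth and the glutathione-degrading enzyme fell steeply in MV4-11. CHAC1, which breaks down glutathione and is induced through ATF4, ATF3 and CHOP, had 2.66, 4.09 and 3.18 CPM in the AC220 libraries, against 107, 83.8 and 98.9 CPM in the DMSO libraries. It was 29.4-fold lower, a log2 fold change of −4.88 (SE 0.162, adjusted p = 2.25e-15). DDIT4 encodes REDD1, an inhibitor of mTORC1, the kinase complex that promotes growth. It had 7.21, 6.23 and 5.08 CPM in the AC220 libraries, against 89.7, 81.5 and 88.9 CPM in the DMSO libraries, and fell by 3.80 on the log2 scale (SE 0.115, adjusted p = 1.55e-21). SESN2, the leucine-sensing inhibitor of the same complex, had 13.6, 16.7 and 13.6 CPM in the AC220 libraries, against 113, 109 and 109 CPM in the DMSO libraries. EIF4EBP1, a repressor of cap-dependent translation that mTORC1 switches off, had 28.4, 32.2 and 33.5 CPM in the AC220 libraries, against 107, 112 and 100 CPM in the DMSO libraries. SESN2 was 7.58-fold and EIF4EBP1 3.39-fold lower, and no libraries overlapped in any of these 4 genes.

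All 6 genes of amino acid and mitochondrial metabolism were lower in MV4-11 after AC220, over a wide range. ASNS, asparagine synthetase, had 20.2, 17.0 and 21.3 CPM in the AC220 libraries, against 270, 266 and 249 CPM in the DMSO libraries. This was a 13.4-fold decrease (log2 fold change −3.74, SE 0.0793, adjusted p = 5.60e-25), which had the smallest adjusted p of the 32 genes. GPT2, the mitochondrial alanine aminotransferase, had 14.0, 14.9 and 18.1 CPM in the AC220 libraries, against 225, 201 and 189 CPM in the DMSO libraries, and fell by 3.71 on the log2 scale (SE 0.0942). PCK2, the mitochondrial phosphoenolpyruvate carboxykinase, had 12.6, 11.3 and 13.3 CPM in the AC220 libraries, against 136, 134 and 132 CPM in the DMSO libraries, and was 10.8-fold lower.

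The proline pathway was split by size in MV4-11. PYCR1, which carries out the last step of proline synthesis in mitochondria, had 25.4, 33.1 and 34.6 CPM in the AC220 libraries, against 117, 119 and 107 CPM in the DMSO libraries, and was 3.71-fold lower. ALDH18A1, which starts proline synthesis from glutamate, had 24.8, 18.7 and 15.3 CPM in the AC220 libraries, against 25.6, 28.6 and 33.2 CPM in the DMSO libraries, a decrease of 1.48-fold (adjusted p = 0.00146). Its groups came close, with 24.8 CPM in an AC220 library and 25.6 CPM in a DMSO library. LONP1, a protease of the mitochondrial matrix, had 79.6, 88.6 and 94.0 CPM in the AC220 libraries, against 256, 241 and 253 CPM in the DMSO libraries, and was 2.86-fold lower.

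Of the secreted factors, ADM2, a peptide of the adrenomedullin family, had the largest fitted decrease of the 32 genes. It had 0.152, 0.0930 and 0.272 CPM in MV4-11 AC220, against 30.2, 30.1 and 27.8 CPM in MV4-11 DMSO, a log2 fold change of −7.34 (SE 0.227, adjusted p = 2.26e-21). GDF15, a stress-induced cytokine, had 0, 0.186 and 0.182 CPM in the AC220 libraries, against 5.51, 6.03 and 6.43 CPM in the DMSO libraries, a log2 fold change of −5.59 (SE 0.467, adjusted p = 2.10e-11). For both genes the AC220 libraries lay around or under the level of 3 counts. STC2, a secreted glycoprotein, was scarce in MV4-11 to begin with, with no counts in the AC220 libraries and 0.870, 0.257 and 0.386 CPM in the DMSO libraries, 25 counts in all. Taking 3 counts over the AC220 group as the floor and the 25 counts under DMSO as exact, STC2 was at least 6.01-fold lower. Its adjusted p by edgeR was 5.70e-04. STC2 passed the filter on low counts only through the OCI-AML3 libraries, and with the MV4-11 libraries alone it was not tested.

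The export and membrane proteins changed less in MV4-11. XPOT, which exports tRNA from the nucleus, had 19.1, 16.9 and 18.4 CPM in the AC220 libraries, against 55.1, 53.0 and 55.5 CPM in the DMSO libraries, and was 3.00-fold lower. HERPUD1, a component of endoplasmic reticulum-associated degradation, had 40.7, 26.5 and 29 CPM in the AC220 libraries, against 51.5, 56.4 and 66.7 CPM in the DMSO libraries, a log2 fold change of −0.85 (SE 0.200, adjusted p = 0.00395). VLDLR, a lipoprotein receptor, had 27.7, 22.1 and 23.1 CPM in the AC220 libraries, against 24.9, 33.9 and 31.9 CPM in the DMSO libraries. Its libraries overlapped, and it was called lower with a log2 fold change of −0.31 (SE 0.122, adjusted p = 0.0290). The call of VLDLR was lost in 5 of 20 alternatives. These were the fits without AC220 replicate 2, DMSO replicate 2 or DMSO replicate 3 of MV4-11, the stricter filter (edgeR adjusted p = 0.051) and limma on the deposited values (0.114). Its adjusted p ran from 0.00445 to 0.166 over all alternatives.

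**Figure D3:**
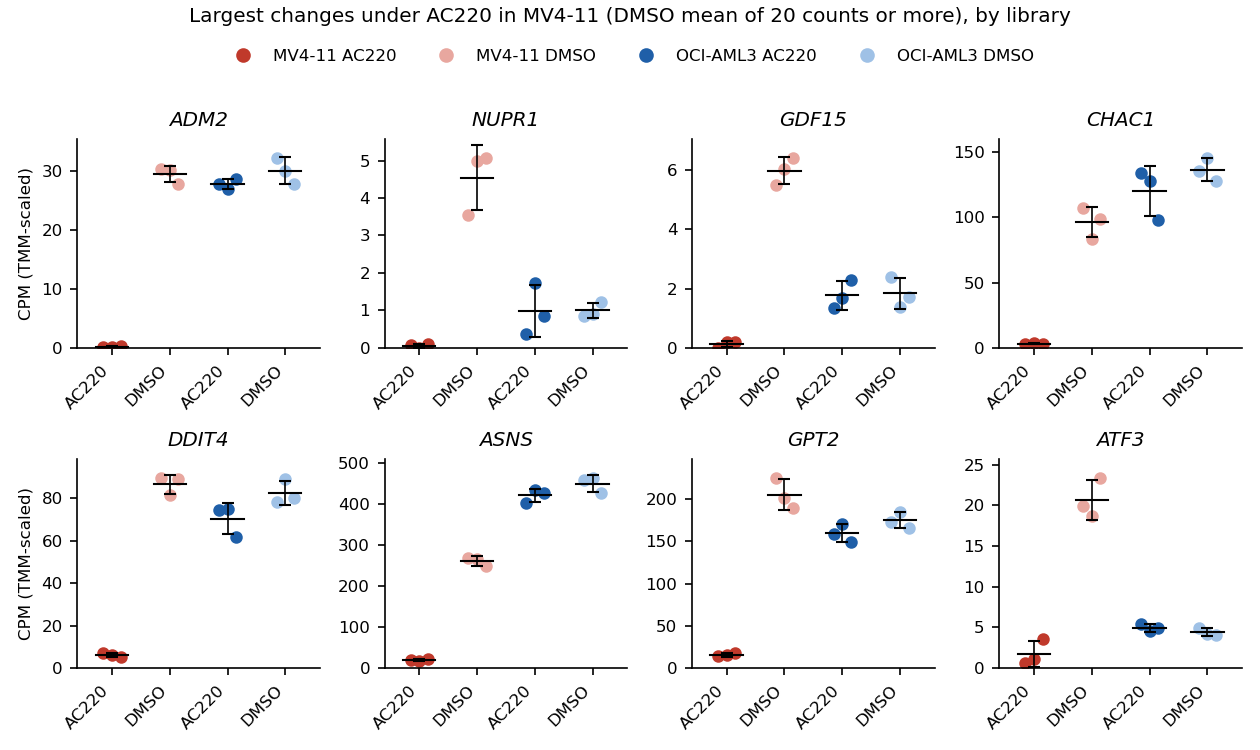
Each panel shows TMM-scaled CPM in every library, with the mean and SD of 3 libraries per group, for the 8 genes with the largest log2 fold change under AC220 in MV4-11 among those with a mean of at least 20 counts under DMSO, which leaves out STC2; colours are red and pink for MV4-11 under AC220 and DMSO, and dark and light blue for OCI-AML3 under AC220 and DMSO. In each of the 8 panels the MV4-11 AC220 libraries lie near 0 on the axis. They are at 0.0930 to 0.272 CPM for ADM2 and 17.0 to 21.3 CPM for ASNS. None of the 8 genes has a call in OCI-AML3, where NUPR1 and GDF15 are scarce.

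Promoter sequence of some of these genes is shown because 7 genes of the list hold, in the 250 bases before an annotated start, the core TGATGNAA of the C/EBP-ATF response element to which ATF4 and its partners are known to bind. Windows were found for 27 of the 32 genes in RefSeq (GRCh38.p14), and GPT2, NUPR1, EIF4EBP1, EIF2AK1 and PYCR1 had none. With both strands searched, the 7 genes were ASNS, ATF3, CEBPG, CHAC1, HERPUD1, JDP2 and PPP1R15B, 25.9% of 27, and 1061 of all 27305 genes with a window held it, 3.89%. Counted by window, the shares were 18.4% of 38 and 3.14% of 35116. The sequences below are given 5′ to 3′ on the strand of the gene, and the capitals mark the match, which in CHAC1 lies on the other strand. The CHAC1 stretch is chr15:40953251-40953280 (plus strand), in an exon with untranslated sequence in GENCODE 29, and its match lies 209 to 202 bases before the start. The ASNS stretch is chr7:97872458-97872487 (minus strand), in an exon with untranslated sequence of ASNS and an intron of AC079781.5, with its match 68 to 61 bases before the start. The ATF3 stretch is chr1:212565160-212565279 (plus strand), where no gene is annotated, with its match 191 to 184 bases before the start. The JDP2 stretch is chr14:75427902-75428021 (plus strand), in an intron of JDP2, with its match 16 to 9 bases before the start. The CEBPG stretch is chr19:33373993-33374112 (plus strand), in an intron of CEBPG, with its match 42 to 35 bases before the start.
CHAC1: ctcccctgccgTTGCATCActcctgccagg
ASNS: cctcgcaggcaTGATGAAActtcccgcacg
ATF3: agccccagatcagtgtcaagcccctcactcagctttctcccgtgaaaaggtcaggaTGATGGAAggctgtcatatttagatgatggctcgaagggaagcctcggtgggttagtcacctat
JDP2: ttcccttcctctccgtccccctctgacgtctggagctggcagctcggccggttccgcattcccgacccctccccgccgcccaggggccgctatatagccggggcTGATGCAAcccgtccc
CEBPG: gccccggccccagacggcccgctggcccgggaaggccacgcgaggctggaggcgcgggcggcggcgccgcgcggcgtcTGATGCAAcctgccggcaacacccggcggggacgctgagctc

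The 7 genes with the core had log2 fold changes under AC220 in MV4-11 between −4.88 for CHAC1 and −0.36 for PPP1R15B. All 7 were called lower there, as were 28 of all 32 genes and 26.9% of all genes tested. Genes for which no core was found in a window were thus called lower too. A search of fixed windows before annotated starts does not cover elements elsewhere, and some genes had no window. Whether the core had a part in the decrease was not tested. ADM2 and DDIT4, at log2 fold changes of −7.34 for ADM2 and −3.80 for DDIT4, had windows without these letters. The letters TGACGT, the core of the cAMP response element, stood in the windows of ALDH18A1, ATF6, JDP2, PPP1R15A and PPP1R15B, 18.5% of the 27 genes, against 8.62% of all genes with a window. The endoplasmic reticulum stress element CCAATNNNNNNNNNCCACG stood in the window of XBP1 alone among the 27, 52 to 34 bases before its start, and in 25 of all 27305 genes. These matches describe the letters of a fixed window and were not tested.

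The second comparison asked what AC220 did to the same transcripts in the line without FLT3-ITD. In OCI-AML3 28 of the 32 genes had no call, 3 were called higher and 1 lower, where 3.44% of all genes tested were higher and 0.508% lower. The adjustment was made within each comparison, so counts of calls in the 2 lines are not on the same scale. By edgeR the unadjusted p was 0.0154 for ATF4 in OCI-AML3, with no call at an adjusted p of 0.131. For VLDLR in MV4-11 it was 0.0157, with a call at an adjusted p of 0.0290. The median log2 fold change of the 32 genes was −0.06 and that of all genes was 0, with a range over the 32 genes of −0.29 to 0.87. The genes took 0.367% to 0.379% of counts in OCI-AML3 AC220 and 0.384% to 0.396% in OCI-AML3 DMSO. These counts of calls rested on few libraries. No gene was called higher without OCI-AML3 AC220 replicate 3, OCI-AML3 DMSO replicate 1 or OCI-AML3 DMSO replicate 2, and 1 without OCI-AML3 AC220 replicate 2, whereas 5 were without OCI-AML3 AC220 replicate 1 and 6 without OCI-AML3 DMSO replicate 3 or MV4-11 AC220 replicate 1. The number called lower was 0 without OCI-AML3 AC220 replicate 3, OCI-AML3 DMSO replicate 1 or OCI-AML3 DMSO replicate 2, 2 without OCI-AML3 AC220 replicate 1, OCI-AML3 DMSO replicate 3 or MV4-11 AC220 replicate 2, and 3 without MV4-11 AC220 replicate 1 or MV4-11 AC220 replicate 3.

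The 3 genes called higher in OCI-AML3 were ALDH18A1, CEBPG and PPP1R15B, each of which was lower in MV4-11. ALDH18A1 had 33.8, 35.9 and 37.6 CPM in OCI-AML3 AC220, against 21.1, 19.1 and 25.4 CPM in OCI-AML3 DMSO, a log2 fold change of 0.71 (SE 0.138, adjusted p = 0.00940, and 2.82e-06 to 0.132 over the alternatives). CEBPG had 48.2, 64.2 and 72.6 CPM in the AC220 libraries, against 40.7, 37.0 and 44.1 CPM in the DMSO libraries, a log2 fold change of 0.61 (SE 0.142, adjusted p = 0.0293, and 4.28e-04 to 0.167 over the alternatives). PPP1R15B had 49.1, 47.9 and 55.5 CPM in the AC220 libraries, against 36.8, 42.2 and 40.5 CPM in the DMSO libraries, a log2 fold change of 0.35 (SE 0.0967, adjusted p = 0.0358, and 0.0114 to 0.242 over the alternatives). The libraries of the groups did not overlap in these 3 genes. LONP1, the gene called lower, had 109, 120 and 114 CPM in the AC220 libraries, against 143, 145 and 132 CPM in the DMSO libraries, a log2 fold change of −0.29 (SE 0.0700, adjusted p = 0.0211, and 0.00262 to 0.146 over the alternatives).

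ATF4 had 1040, 1060 and 978 CPM in OCI-AML3 AC220, against 1220, 1200 and 1090 CPM in OCI-AML3 DMSO. Every AC220 library lay below every DMSO library, and the log2 fold change of −0.20 (SE 0.0758) did not pass at an adjusted p of 0.131. Among the kinases, EIF2AK3 had 3.16, 4.86 and 4.74 CPM in the AC220 libraries, against 1.55, 2.51 and 2.96 CPM in the DMSO libraries, a log2 fold change of 0.87 (SE 0.260, adjusted p = 0.0538, and 0.0191 to 0.292 over the alternatives). EIF2AK2 had 163, 188 and 199 CPM in the AC220 libraries and 131, 143 and 172 CPM in the DMSO libraries, with overlap and an adjusted p of 0.199. EIF2AK1, with 219, 237 and 197 CPM in the AC220 libraries and 259, 250 and 229 CPM in the DMSO libraries, also overlapped between groups, as did EIF2AK4, with 49.9, 48.4 and 45 CPM in the AC220 libraries and 45, 51.0 and 50.9 CPM in the DMSO libraries. Their adjusted p were 0.127 for EIF2AK1 and 0.852 for EIF2AK4.

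The genes with the largest decreases in MV4-11 showed no call in OCI-AML3. For scarce genes this says little. NUPR1 had 41 counts over the OCI-AML3 AC220 group and 40 over the DMSO group (SE of the log2 fold change 0.437). GDF15 had 71 counts under AC220 and 73 under DMSO (SE 0.324). ASNS had 404, 435 and 428 CPM in OCI-AML3 AC220 and 459, 465 and 427 CPM in OCI-AML3 DMSO. CHAC1 had 134, 128 and 98.2 CPM in the AC220 libraries and 136, 146 and 128 CPM in the DMSO libraries. The libraries overlapped in both genes, with adjusted p of 0.446 for ASNS and 0.338 for CHAC1. DDIT4 had 74.4, 74.8 and 61.9 CPM in the AC220 libraries and 78.2, 88.9 and 80.1 CPM in the DMSO libraries, all lower under AC220, with a log2 fold change of −0.23 (SE 0.0881, adjusted p = 0.128). ADM2 had 27.7, 26.9 and 28.5 CPM in the AC220 libraries and 32.2, 30 and 27.7 CPM in the DMSO libraries (adjusted p = 0.581). PCK2 came closest to a call among the metabolic enzymes, with 168, 171 and 149 CPM in the AC220 libraries and 211, 208 and 168 CPM in the DMSO libraries (log2 fold change −0.27, SE 0.0782, adjusted p = 0.0501). PPP1R15A had 15.4, 18.1 and 16.2 CPM in the AC220 libraries and 11.4, 12.5 and 14.4 CPM in the DMSO libraries, all higher under AC220, with a log2 fold change of 0.38 (SE 0.112, adjusted p = 0.0518).

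A single line had FLT3-ITD and a single line lacked it, so FLT3-ITD cannot be told apart from the other differences between them. Whether the response differed between the lines was tested as the log2 fold change in MV4-11 minus that in OCI-AML3. This difference was negative with a call for 28 of the 32 genes and positive for EIF2AK4, and EIF2AK1, IMPACT and ATF6 had no call. Of all genes tested, 23.7% had a lower and 23% a higher response in MV4-11, 46.7% in all. The median difference was −1.69 over the 32 genes and 0.03 over all genes. It was −1.57 for ATF4 (SE 0.109, adjusted p = 4.13e-12), −3.65 for ASNS (SE 0.102, adjusted p = 1.13e-21) and −4.69 for CHAC1 (SE 0.201, adjusted p = 2.50e-13). EIF2AK4 had a difference of 0.57 (SE 0.116, adjusted p = 1.80e-04). The difference was called for EIF2AK2 at −0.64 (SE 0.193, adjusted p = 0.0142) and for EIF2AK3 at −1.17 (SE 0.347, adjusted p = 0.00659), although neither gene had a call in either line. Of the 28 genes lower in MV4-11, 3 were higher in OCI-AML3, 1 was lower there too and the rest had no call. LONP1, the gene lower in both lines, had a difference of −1.23 (SE 0.0993, adjusted p = 2.11e-11).

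The lines were then set against each other under each treatment. Under DMSO, 15 of the 32 genes were higher and 10 lower in MV4-11 than in OCI-AML3, where 32.1% of all genes were higher and 33.4% lower, and the median log2 fold change was 0.18 against 0.01 over all genes. Under AC220, 4 were higher and 24 lower in MV4-11, where 36.7% of all genes were higher and 39.5% lower, with a median of −1.39 against −0.03 over all genes. Of the 32 genes, 10 were higher in MV4-11 under DMSO and lower under AC220, 10 were lower under both and 3 were higher under both. STC2 is counted here as lower under both treatments. It passed the filter on low counts only through the OCI-AML3 libraries, where it is high. The comparisons under DMSO and AC220 use different libraries.

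ATF4 was already somewhat lower in MV4-11 than in OCI-AML3 under DMSO, with a log2 fold change of −0.35 (SE 0.0759, adjusted p = 2.53e-04), and under AC220 it was −1.92 (SE 0.0793, adjusted p = 1.05e-17). For ASNS the log2 fold changes between the lines were −0.78 under DMSO and −4.43 under AC220. ATF5 was far higher in MV4-11, with a log2 fold change of 4.63 under DMSO (SE 0.0987), at 581, 635 and 551 CPM in MV4-11 and 23.8, 22.6 and 25.0 CPM in OCI-AML3. Under AC220 ATF5 was still higher in MV4-11 by 2.04 on the log2 scale (SE 0.0968), at 74.3, 100 and 94.7 CPM in MV4-11 and 20.6, 21.0 and 23.7 CPM in OCI-AML3. PPP1R15A and VLDLR were the other genes higher in MV4-11 under both treatments.

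STC2 separated the lines most. Under DMSO it had 0.870, 0.257 and 0.386 CPM in MV4-11 and 83.7, 94.3 and 76.9 CPM in OCI-AML3. The log2 fold change was −7.34 (SE 0.204). No p-value is given, because STC2 passed the filter on low counts only through the OCI-AML3 libraries, where it is high. Under AC220 it had no counts in MV4-11 and 76.8, 84.3 and 64.5 CPM in OCI-AML3, so that it was at least 876-fold lower in MV4-11 with 3 counts over the group as the floor. ATF3 changed sides: its log2 fold change between the lines was 2.22 under DMSO (SE 0.261, adjusted p = 6.19e-07) and −1.52 under AC220 (SE 0.357, adjusted p = 8.82e-04), and without MV4-11 AC220 replicate 3 the value under AC220 was −2.55 with an adjusted p of 1.25e-08. XBP1, at a log2 fold change of 1.54 under DMSO (SE 0.0605), had no call under AC220, with 173, 162 and 160 CPM in MV4-11 and 175, 180 and 179 CPM in OCI-AML3. EIF2AK2 was lower in MV4-11 under both treatments, with log2 fold changes of −1.78 under DMSO and −2.42 under AC220.

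**Figure D4:**
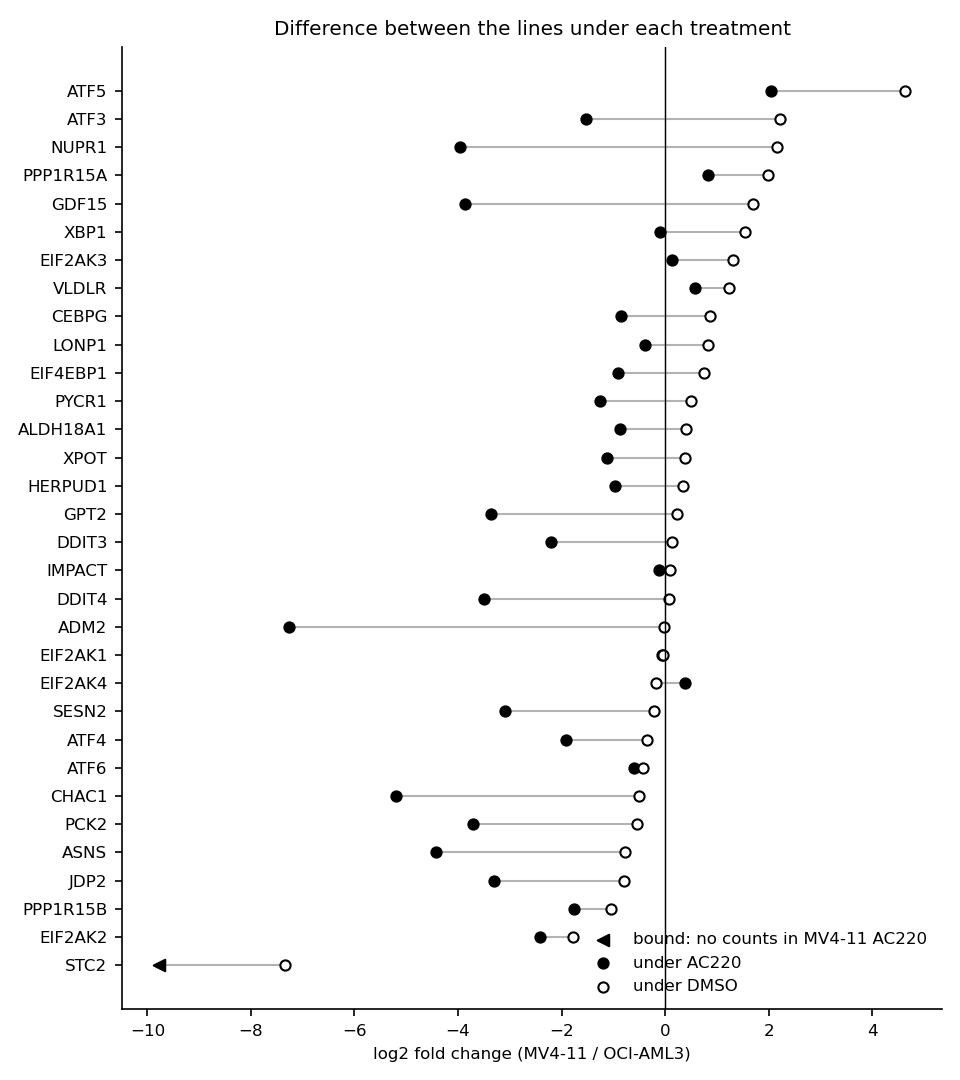
Each row is a gene and the x axis is the log2 fold change of MV4-11 against OCI-AML3, with filled points for AC220 and open points for DMSO; the triangle for STC2 is a bound. The filled point lies left of the open point for every gene but EIF2AK4, with the medians at −1.39 under AC220 and 0.18 under DMSO.

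Other genes around the pathway were read from 5 lists, which were also chosen with earlier results of these data known. All 26 further ATF4 targets, which cover amino acid transporters, serine and one-carbon enzymes and aminoacyl-tRNA synthetases, were lower in MV4-11 after AC220, where 26.9% of all genes were lower and 31.5% higher, with a median log2 fold change of −2.42 against 0.07 over all genes. PSAT1 and PHGDH, enzymes of serine synthesis, and SLC7A5, a transporter of large neutral amino acids, had the smallest adjusted p. PSAT1 averaged 30.4 ± 2.77 CPM in MV4-11 AC220 and 568 ± 27.7 CPM in MV4-11 DMSO, and PHGDH averaged 8.50 ± 0.584 CPM in MV4-11 AC220 and 323 ± 7.40 CPM in MV4-11 DMSO (SD, n = 3 each). SLC7A5 was 14.2-fold lower. In OCI-AML3, where 3.44% of all genes were higher and 0.508% lower, 1 of the 26, PSAT1, was higher and 5 were lower, PSPH and the tRNA synthetases AARS, SARS, WARS and CARS, by 0.22 to 0.32 on the log2 scale. Without OCI-AML3 AC220 replicate 3, OCI-AML3 DMSO replicate 1 or OCI-AML3 DMSO replicate 2 none of the 26 was called in OCI-AML3.

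The ATF6 and IRE1-XBP1 branches held 19 measured genes, of which 3 were higher and 7 lower in MV4-11 after AC220, with a median log2 fold change of −0.20. Of all genes, for this list and the next, 31.5% were higher and 26.9% lower. MANF, a secreted protein of the endoplasmic reticulum stress response, was at −0.93, HSPA5, the chaperone BiP, at −0.52, and ATF6B, the relative of ATF6, rose by 0.68 on the log2 scale. MANF was among the 4 genes of this list that were higher in OCI-AML3, with a log2 fold change of 0.41 (SE 0.0944, adjusted p = 0.0180), and none of the 4 was called without OCI-AML3 AC220 replicate 3, OCI-AML3 DMSO replicate 1 or OCI-AML3 DMSO replicate 2. Of 18 measured subunits and partners of eIF2 and eIF2B, 2 were higher and 7 lower in MV4-11, with a median of −0.17, and without MV4-11 AC220 replicate 3 the number higher was 1. EIF2S2, the beta subunit of eIF2, had the largest change at −1.42, EIF2S1, which encodes eIF2alpha itself, was at −0.63, EIF2B3 at −0.89, and EIF2A rose by 0.45 on the log2 scale. In OCI-AML3 EIF2D was the gene of this list called higher and EIF2B4 the gene called lower, and no gene of the list was called there without AC220 replicate 2, AC220 replicate 3, DMSO replicate 1 or DMSO replicate 2 of that line. Without MV4-11 AC220 replicate 1 or replicate 3, 2 genes were called lower there.

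The 25 other basic leucine zipper factors went both ways in MV4-11 after AC220, with 11 higher, 12 lower and a median of −0.04, where 31.5% of all genes were higher and 26.9% lower. BATF3 had the largest decrease at −5.95, JUN was at −2.08, and FOSL2 was 1.89-fold and BATF2 2.82-fold higher. The number of higher factors was 6 without replicate 1 of MV4-11 AC220 or replicate 1 of MV4-11 DMSO, and 7 without replicate 3 of MV4-11 DMSO. Of 9 measured genes of the mitochondrial stress relay and mitochondrial protein quality control, 6 were lower and 2 higher, against those same shares of all genes. HSPA9 was at −1.42, HSPE1 at −1.15 and HSPD1 at −0.88, all of them chaperones. OMA1, the protease that starts the relay to HRI, rose by 0.78 and DELE1, its messenger, by 0.59 on the log2 scale.

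**Figure D5:**
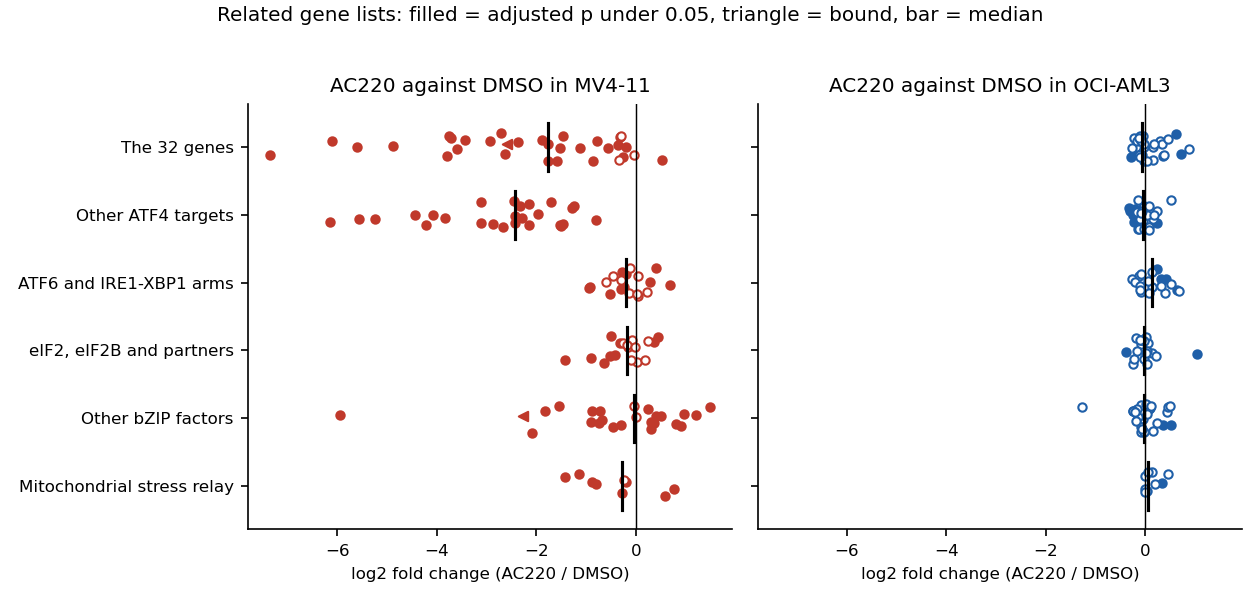
Each point is a gene of the 32 or of one of 5 related lists, placed by its log2 fold change of AC220 against DMSO in MV4-11 (left, red) and OCI-AML3 (right, blue); filled points had an adjusted p under 0.05, triangles are bounds and vertical bars are medians. In MV4-11 the medians of the 32 genes and of the other ATF4 targets lie at −1.76 and −2.42, and those of the other lists between −0.29 and −0.04.

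The exons of 6 of the 32 genes overlap those of another protein-coding gene in GENCODE 29: ATF5 with IL4I1 and NUP62, DDIT3 with MARS, MBD6 and AC022506.1, EIF2AK1 with AIMP2, EIF2AK2 with GPATCH11, LONP1 with RPL36 and PYCR1 with MYADML2. DDIT3 and AC022506.1 lie on the same strand, as do PYCR1 and MYADML2, and the other pairs lie on opposite strands. The strand setting of the authors' counting was not given in the sources used here. To which gene reads within the overlaps were assigned is therefore not known.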

How the data were processed

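Total RNA was DNase-treated and made into libraries with the Lexogen QuantSeq 3' mRNA kit, per the labels' protocols, which counts transcript ends, whatever the gene's length. The submitters' processing notes name hg19, HISAT2 2.0.4, featureCounts, Subread 2.0.0, cutadapt 1.9.1 and limma 3.42.2 without giving their roles. The annotation and the strand setting are not given in the sources used here. For each of the 12 libraries the authors deposited raw read counts by gene symbol, which were the input of the main test. They also deposited normalised log2 values, used only as an alternative input. The count table had 19505 rows, 1 of them without a symbol (0.00343% to 0.00503% of a library's counts), which was left out, and 13 whose symbol had turned into a date.

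Genes were filtered with filterByExpr, scaled by TMM and tested with edgeR 4.0.16 (R 4.3.3, robust quasi-likelihood F test) in a means model of the 4 groups leaving 8 residual degrees of freedom. The Benjamini-Hochberg adjustment covered 12392 genes, with a threshold of 0.05. The common biological coefficient of variation was 8.28%. No libraries were identical, and replicates differed beyond counting noise (chi-square of 2.79 to 10.6 per degree of freedom), so none was taken as a library deposited again; this does not show separate cultures. Groups with no counts were given a bound at 3 counts over the group, with the counts of the other group taken as exact. Groups with 1 to 3 counts were given a 95% counting interval. Neither covers more than counting error, since such reads, which carry no molecular identifiers, are not independent molecules. The procedure was tested on simulated counts, with far fewer changed genes than were called in MV4-11. At a log2 change of 0.5, 70% of 50 changed genes were recovered for MV4-11 and 54% for OCI-AML3. At a log2 change of 1 these shares were 90% for MV4-11 and 94% for OCI-AML3. False calls made up 4.26% of calls for MV4-11 and 5.46% for OCI-AML3. Results were recomputed with median-ratio size factors, a stricter filter on low counts (mean count of 50) or none, DESeq2 1.42.0, limma-voom (limma 3.58.1), limma on the deposited values, a replicate block, the compared libraries alone and each library left out. The 32 genes, the 5 lists and the marker genes were chosen with earlier results of these data known. All 32 genes are described; those outside them are the 3 of each list with the smallest adjusted p and the largest change against its direction, and others named were chosen after their values were seen. Promoter sequences come from RefSeq (GRCh38.p14) and overlaps from GENCODE 29; neither gives a coordinate of the counted reads, which were on hg19.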

Additional observations from a re-analysis of the deposited data

Results flagged for a closer look

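For 29 of the 32 genes the response to AC220 differed between the lines in edgeR's test of the difference itself, against 46.7% of all genes tested. Values are the log2 fold change in MV4-11 minus that in OCI-AML3. The difference was −0.64 for EIF2AK2, −1.17 for EIF2AK3 and 0.57 for EIF2AK4 among the kinases, and −1.16 for PPP1R15A and −0.72 for PPP1R15B among the phosphatase subunits. Among the transcription factors it was −1.57 for ATF4, −3.74 for ATF3 (−4.78 without MV4-11 AC220 replicate 3), −2.59 for ATF5, −1.72 for CEBPG, −2.34 for DDIT3, −2.51 for JDP2, −6.13 for NUPR1 and −1.64 for XBP1. It was −3.57 for DDIT4, −2.87 for SESN2, −1.66 for EIF4EBP1 and −4.69 for CHAC1. The enzymes had −3.65 for ASNS, −3.58 for GPT2, −3.17 for PCK2, −1.27 for ALDH18A1, −1.76 for PYCR1 and −1.23 for LONP1. The secreted, membrane and export proteins had −7.23 for ADM2, −5.56 for GDF15, −5.65 for STC2, −1.49 for XPOT, −0.65 for VLDLR and −1.30 for HERPUD1. The value for STC2 is a fitted one against a group with no counts, depends on the prior count and is no bound. STC2 is counted among the 29 genes, although it passed the filter on low counts only through the OCI-AML3 libraries. With 3 libraries a group, single libraries were not tested for standing apart.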

How the results depend on the processing

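Over 20 alternatives, 3154 values of the 32 genes in the 5 comparisons were recomputed: 3073 kept their side of the threshold, 31 of them with a change of sign between values without a call, 34 lost a call, 47 gained one and none with a call reversed. In MV4-11, 25 to 29 genes were called lower (27 to 29 with a library left out) and 1 higher throughout, and in the difference of responses 26 to 28 were lower. The low ends of 25 and 26 came with the stricter filter, which left NUPR1 and GDF15 untested and, in MV4-11, VLDLR without a call. In the difference of responses no gene that was tested lost its call. In OCI-AML3 the genes called higher, 3 in the main test, were 5 with no filter or a stricter filter, 0 on the deposited normalised values and 0 to 6 with a library left out. Those called lower, 1 in the main test, were 2 with median-ratio size factors, no filter, a stricter filter, DESeq2 or limma-voom, 0 on the deposited values and 0 to 3 with a library left out. All genes called in OCI-AML3, 489 in the main test, were 836 with no filter, 813 by DESeq2, 1 on the deposited values and 13 to 1136 with a library left out. The cause was not tested.

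The labels give the groups the same replicate numbers. Same-numbered libraries correlated in their deviations from the group means at −0.12 to −0.08 in MV4-11 and 0.05 to 0.18 in OCI-AML3. Differently numbered libraries correlated at −0.02 to 0.11 in MV4-11 and −0.13 to 0.06 in OCI-AML3. In OCI-AML3 the same-numbered values were thus mostly higher, though weak. The main test did not take the numbers as pairs. With a replicate block, 29 of the 32 genes were lower and 1 higher in MV4-11, and 2 were higher and 1 lower in OCI-AML3. Depth limits ADM2, NUPR1, GDF15 and STC2 in MV4-11 AC220, which lie near or under 3 counts a library.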
